A study of Mus musculus with 10 samples.

Results

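Spleens of 6 young BALB/c mice immunized with cartilage proteoglycan (PG) were compared, 2 from mice that had developed arthritis and 4 from mice that had not. They were chosen by their sample titles alone, as the young arthritic and the young non-arthritic groups, and they are 6 of the 10 mice on arrays in the series. All were female siblings injected i.p. with PG in DDA (dimethyldioctadecyl-ammonium bromide) adjuvant, the non-arthritic mice included, so no group was left without immunization. Proteoglycan of human cartilage served as the antigen. By the labels the young arthritic mice were aged 5 and 4 months, and the young non-arthritic mice 3, 3, 2 and 1 months. The 4 remaining mice, immunized alike, were 2 old non-arthritic mice of 7 and 5 months and 2 old arthritic mice of 9 months. Whether these are the ages at the first injection or at sacrifice is not stated in the labels. Every young arthritic mouse was older than every young non-arthritic mouse, with group means of 4.5 and 2.25 months, so arthritis and age cannot be told apart in this comparison. A mouse of 5 months stands both in the young arthritic and in the old non-arthritic group, although the design text speaks of age-matched arthritic mice.

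In PG-induced arthritis (PGIA), which is used to model rheumatoid arthritis in mice, repeated injection of a cartilage component breaks tolerance to the mouse's own PG. T cells and B cells that recognize PG are primed in the lymphoid organs, autoantibodies are formed, and the joints of the paws become inflamed. The spleen is one of the organs where T and B cells meet antigen, in its white pulp. Its red pulp filters blood, holds macrophages and a reserve of monocytes, and in mice also makes red cells, granulocytes and platelets, an activity that inflammation is known to raise. A change in spleen RNA can therefore come from lymphocytes, from phagocytes or from the blood-forming cells.

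One array per mouse was hybridized with RNA of a piece of spleen, and the labels call the mice biological replicates. The values are deposited log2 signals per probe set, a probe set being a group of short probes for 1 transcript. The medians of the 10 arrays ran from 6.88 to 6.96, and the 6 young arrays correlated at 0.977 to 0.991 over probe sets. The tissue label was checked on 10 spleen markers. All except Siglec1 lay between the 80.1 and the 99.1 percentile of all probe sets, among them Cd79a of B cells, Cd3e of T cells, Spic of red pulp macrophages and Cxcl13 of lymphoid stroma. Siglec1, of marginal zone macrophages, lay at the 57 percentile.

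Which transcripts differed between young mice with and without arthritis was asked for the 23805 probe sets that at least 2 arrays showed above their own median signal. Of these 74 passed an adjusted p of 0.05, or 0.311%, and 59 of them were higher and 15 lower in arthritic mice. In all 74 the 2 arthritic mice lay outside the range of the 4 non-arthritic mice, which selection by p on these same arrays favours. In 31 of the 74 both group means lay above the middle of the arrays, at 6.92, and 28 of these rose and 3 fell. The other 43 had at least 1 group mean among the dim signals, below that middle. Among 11870 genes, each read from its brightest probe set, 0.194% were called higher and 0.0421% lower. In 30.2% of these genes the groups did not overlap with the arthritic mice higher, and in 4.98% with them lower. In a spleen piece, fewer cells of a type and less RNA per cell cannot be told apart, and this holds for every gene below.

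Among genes with both means above the middle of the arrays, 8 rose and 1 fell. In the sentences that follow, the arthritic values are those of the mice of 5 and 4 months, and the non-arthritic values those of the mice of 3, 3, 2 and 1 months. Ly75, which encodes the endocytic receptor DEC-205 of dendritic cells, had signals of 8.27 and 8.50 in the arthritic mice and of 7.64, 7.28, 7.50 and 7.34 in the non-arthritic mice. It rose by 0.94 on the log2 scale, or 1.92-fold (95% interval 0.64 to 1.24, adjusted p = 0.0357). Ms4a6d, a membrane protein gene of monocytes and macrophages, had signals of 9.96 and 9.94 against 9.12, 9.17, 9.48 and 9.18. It rose by 0.71 (0.46 to 0.96, adjusted p = 0.048), and its other kept probe set differed by 0.53. In both genes the lowest arthritic mouse stood well above the highest non-arthritic mouse.

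Bbc3, which encodes the p53-induced apoptosis activator PUMA, had signals of 8.85 and 8.95 in the arthritic mice and of 8.43, 8.39, 8.40 and 8.39 in the others. It rose by 0.50 (0.33 to 0.67, adjusted p = 0.0433). Pdgfc, a ligand of the platelet-derived growth factor receptors, had signals of 8.37 and 8.58 against 7.82, 7.94, 7.78 and 7.88. It rose by 0.62 (0.40 to 0.84, adjusted p = 0.0496), while a second probe set of this gene differed by 0.14 only and was not past the threshold. Mpp2, a scaffold protein gene of the membrane-associated guanylate kinases, rose by 0.66 (adjusted p = 0.0433). Aldh3b2, an aldehyde dehydrogenase gene, had the signal 7.79 in both arthritic mice, against 7.11, 7.05, 7.16 and 7.33, and rose by 0.63 (adjusted p = 0.0433). Tnni2, known as the troponin I of fast skeletal muscle, rose by 0.68 (adjusted p = 0.0496), while its other probe sets, below the filter, differed by -0.20 and -0.21. The RIKEN transcript 1700036A12Rik rose by 0.75 (adjusted p = 0.0345).

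Ptprv, which encodes a receptor-type tyrosine phosphatase, was the gene that fell. Its signals were 7.26 and 7.25 in the arthritic mice and 7.68, 7.69, 7.71 and 7.70 in the non-arthritic mice. It fell by 0.44 (95% interval -0.59 to -0.28, adjusted p = 0.0496), and the 4 non-arthritic mice spanned a far narrower range than the gap to the arthritic mice.

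**Figure D1:**
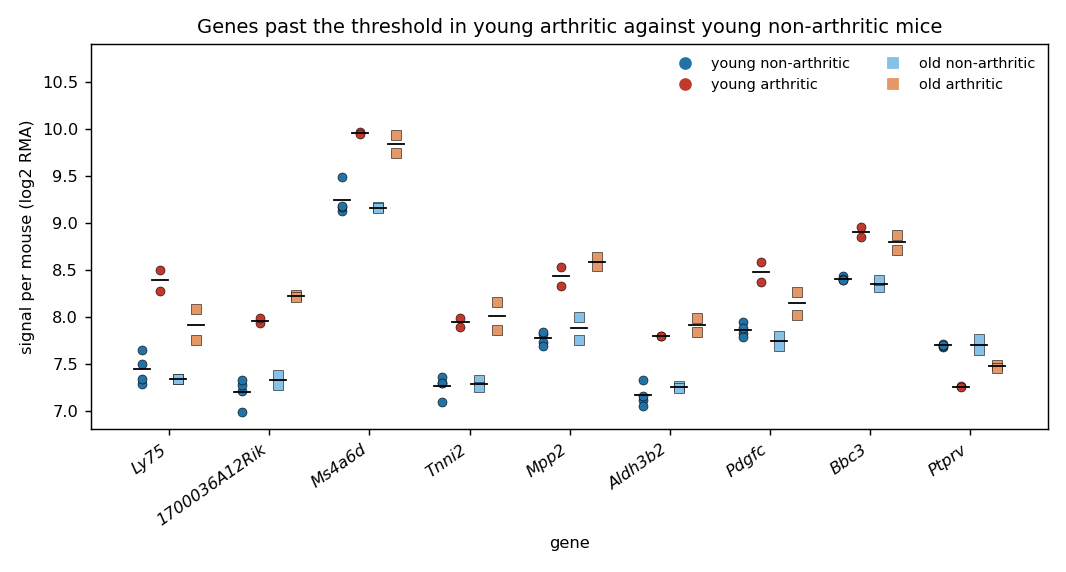
Log2 signal per mouse (points) and group mean (lines) of the 9 genes past the threshold with both young group means above the middle of the arrays, for young non-arthritic, young arthritic, old non-arthritic and old arthritic mice. In each gene the 2 young arthritic mice lie outside the range of the 4 young non-arthritic mice, which selection by p on these arrays favours. Ly75, for example, stands at 8.27 and 8.50 against 7.28 to 7.64.

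Next in order of p were genes that did not pass. Tgfa, a ligand of the epidermal growth factor receptor, differed by 0.51 (adjusted p = 0.0504), while its dimmer probe sets differed by 0.21 and, below the filter, by -0.33. The sulfotransferase gene Sult5a1 differed by 0.55 (adjusted p = 0.0504) and Mocs3, of molybdenum cofactor synthesis, by 0.59 (adjusted p = 0.0526). Cd5l, which encodes a protein secreted by tissue macrophages, was far brighter than these. Its signals were 11.89 and 11.94 in the arthritic mice and 11.44, 11.25, 11.19 and 11.39 in the non-arthritic mice, a difference of 0.60 (0.37 to 0.82, adjusted p = 0.0544).

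A further 11 genes with a lower signal were named in the same way, with adjusted p from 0.057 to 0.103. Klhl23, of the kelch-like family, had signals of 8.39 and 8.43 against 8.84, 8.86, 8.83 and 8.75, a difference of -0.41 (adjusted p = 0.057). The autophagy gene Atg2a differed by -0.62 (adjusted p = 0.0648) and the Krüppel-like factor gene Klf14 by -0.55 (adjusted p = 0.0786). The adenylate cyclase gene Adcy1 differed by -0.45, the aquaporin gene Aqp12 by -0.39, Wwc1, which encodes the Hippo pathway protein KIBRA, by -0.54 and the Bcl-2 family gene Bcl2l14 by -0.53. 2700038G22Rik, Zfp952, Pyroxd1 and Gm6211 differed by -0.41, -0.34, -0.43 and -0.53. The groups did not overlap in any of the 11, which was a condition for naming them.

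The old mice give the same probe sets in arrays outside the young comparison, although the estimate of the spread is shared, so that probe sets with little spread in the old mice were favoured among the calls. Dim calls are left out here, because 28 of the 43 stood above the median signal in arthritic arrays only and were kept for those. Of the 28 brighter probe sets called higher in the young, the 2 old arthritic mice lay above both old non-arthritic mice in 28, and of the 3 called lower they lay below in 3. Over all 21895 probe sets with both young means above the middle of the arrays, the old arthritic mice lay above in 35.9% and below in 15.4%. Ms4a6d, for example, had signals of 9.74 and 9.93 in old arthritic mice and of 9.17 and 9.15 in old non-arthritic mice. Old arthritic mice were again older than old non-arthritic mice, so age and arthritis cannot be told apart there either.

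Called probe sets were also set beside brighter probe sets of the same gene. Of the 31 brighter calls, 26 carried 1 gene symbol, and 9 of these stood for their gene as its brightest probe set. The other 17 had a brighter kept probe set of the same gene, with a median of the mean signals of 9.89 against 7.88 for the called probe sets. Their median difference was 0.63 in the called and 0.13 in the brighter probe sets, of which 0 were called and 1 was higher at an unadjusted p of 0.05. That was Trim62, of the tripartite motif family, whose brighter probe set differed by 0.74 (adjusted p = 0.0736), more than the called one at 0.56. Hnrnpk, Yy1 and Khdrbs1 are given as examples of the lower values, chosen after their values were seen. The called probe set of Hnrnpk, an RNA-binding protein gene, differed by 0.77 and the brighter one by 0.13. For Yy1, a transcription factor gene, the values were 0.61 and 0.12, and for Khdrbs1, another RNA-binding protein gene, they were 0.72 and 0.08.

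Among the dim calls that stood for their gene as its brightest probe set, 5 with higher signals, those of the smallest p, and 4 with lower signals are named. Cog7, of the Golgi transport complex COG, had signals of 7.85 and 7.79 in the arthritic mice and of 6.77, 6.71, 6.76 and 6.73 in the others (adjusted p = 0.00706). The ribosomal protein gene Rpl39 had signals of 7.00 and 6.91 against 6.28 in each of the 4 non-arthritic mice (adjusted p = 0.0134). The RIKEN transcript 1700031F05Rik had signals of 7.01 and 6.82 against 5.54 to 5.89, and 1700020L24Rik of 7.23 and 7.44 against 6.26 to 6.45. Gm12108 had signals of 6.63 and 6.67 against 5.72 to 5.88. The probe sets of these 5 genes stood above the median signal in arthritic arrays only and were kept for those, Gm12108 for the old arthritic arrays alone. Low values in the non-arthritic mice were thus favoured by the filter. Mt3, a metallothionein gene, had signals of 6.67 and 6.66 against 7.39, 7.77, 7.74 and 7.96 (adjusted p = 0.0345). The sialyltransferase gene St8sia5 had signals of 6.16 and 6.05 against 6.92 to 7.05, 8430426J06Rik of 6.15 and 6.34 against 6.84 to 7.12, and the tau kinase gene Ttbk1 of 6.79 and 6.78 against 7.23 to 7.38. Mt3, St8sia5 and 8430426J06Rik stood above the median signal in non-arthritic arrays only and were kept for those. For these genes, low values in the arthritic mice were favoured by the filter. No fold is given for any of the dim calls named here, because at least 1 group mean lay below the middle of the arrays.

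Dim probe sets differed in both directions, whereas bright ones differed nearly always upward. Of the 21232 probe sets below the filter, 16.9% were higher and 15.5% lower in arthritic mice at an unadjusted p of 0.05. When all probe sets were split by mean signal into 10 bins of equal size, the shares were 20.2% and 0.244% in bin 10, the brightest, with a median difference of 0.14, and 17.8% and 22% in bin 3. The lowest 0.1% of signals ended at 3.36 in both young arthritic arrays, at 3.25 to 3.30 in the 4 young non-arthritic arrays, at 3.29 in the old non-arthritic and at 3.38 in the old arthritic arrays. The bottom of the scale thus stood higher in every arthritic array than in every non-arthritic array, and its part in the calls was not tested.

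**Figure D2:**
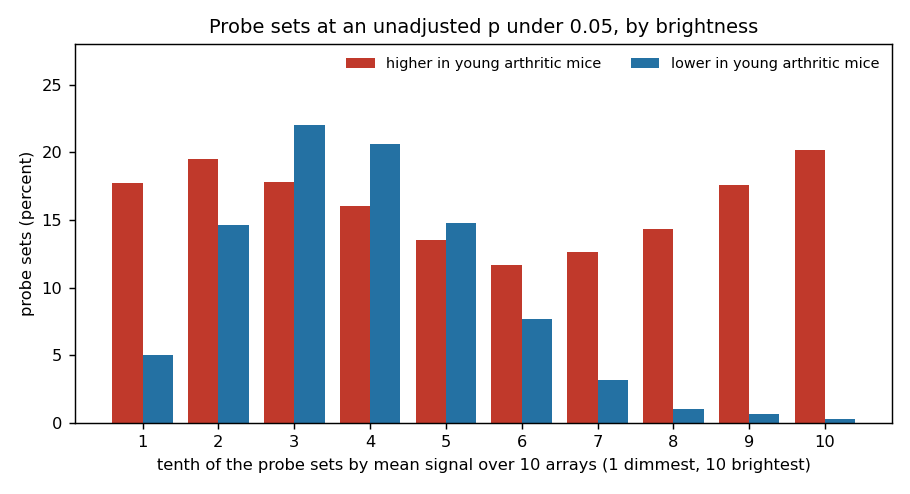
Percent of probe sets at an unadjusted p of 0.05 (bars) that were higher or lower in young arthritic than in young non-arthritic mice, by 10 bins of mean signal from dimmest to brightest. The share with a lower signal runs from 22% in bin 3 to 0.244% in bin 10, while the share with a higher signal is 20.2% in bin 10.

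A small shift upward ran through the bright genes. The median difference of the 11870 genes was 0.11, with a median standard error of 0.11. At an unadjusted p of 0.05, 17.4% of the genes were higher and 2.07% lower in arthritic mice, and the 2 groups did not overlap in 30.2% of genes with the arthritic mice higher and in 4.98% with them lower. When the deposited values were quantile normalized again, so that every array had the same distribution, the median became 0.01 and the shares 6.34% and 4.4%. The gene lists below are read against these values. They are 42 lists of cell types and pathways with 849 different genes, of which 663 were kept. For all 6 young mice, counts of members at an unadjusted p of 0.05 that stand alone are read against 17.4% higher and 2.07% lower. After normalization again they are read against 6.34% and 4.4%.

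Genes of megakaryocytes and platelets had the highest share of members at an unadjusted p of 0.05 among the 42 lists. All 16 kept members had a positive difference, from 0.32 to 0.85, with a median of 0.52. None of their brightest probe sets passed the adjusted threshold, the smallest adjusted p being 0.135, but 14 of the 16 were higher at an unadjusted p of 0.05, against 17.4% of all genes. A dimmer probe set of Selp, which encodes P-selectin, was past the threshold (0.89, adjusted p = 0.0433), with signals of 7.55 and 7.62 against 6.70, 6.56, 6.97 and 6.54, while the brightest, which stands for the gene, differed by 0.57 (adjusted p = 0.272). With the arrays quantile normalized again the median was 0.39, and 5 of the 16 were higher against 6.34%. Vwf, which encodes von Willebrand factor, had signals of 11.38 and 11.45 in the arthritic mice and of 10.51, 10.37, 11.17 and 10.22 in the non-arthritic mice. Its difference was 0.85 ± 0.22 (standard error, adjusted p = 0.135).

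Gp5, a subunit of the platelet receptor for von Willebrand factor, had signals of 11.05 and 11.57 against 10.55, 10.49, 10.98 and 10.35. The chemokine genes Ppbp and Pf4, whose products are stored in platelet granules, were among the brightest signals of the spleen. Ppbp had signals of 14.19 and 14.33 against 14.01, 13.85, 14.08 and 13.83, a difference of 0.32, and Pf4 of 13.54 and 13.80 against 13.34, 13.22, 13.49 and 13.06, a difference of 0.39. In each of the 4 genes the arthritic mice lay above all non-arthritic mice, of which the mouse of 2 months came nearest. The same held for 7 of the 16 members, against 30.2% of all genes.

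Because all members differed in 1 direction, the promoters of these 4 genes were looked up in RefSeq (GRCm38.p6), and those of 3 are printed here as the 250 bases before the start of transcription. A pair of motifs bound by factors of the megakaryocyte lineage were searched on both strands, AGATAA or TTATCT for GATA factors and AGGAAG or CTTCCT for ETS factors, and no match overlapped another. Capitals mark the matches. Gp5 lies on the minus strand at chr16:30310782-30311031, and Ppbp and Pf4 on the plus strand at chr5:90768268-90768517 and chr5:90772185-90772434.
Gp5: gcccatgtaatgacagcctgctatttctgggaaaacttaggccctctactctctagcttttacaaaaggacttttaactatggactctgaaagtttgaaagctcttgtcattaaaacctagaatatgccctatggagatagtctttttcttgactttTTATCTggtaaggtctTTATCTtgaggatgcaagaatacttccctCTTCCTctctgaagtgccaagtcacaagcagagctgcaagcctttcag
Ppbp: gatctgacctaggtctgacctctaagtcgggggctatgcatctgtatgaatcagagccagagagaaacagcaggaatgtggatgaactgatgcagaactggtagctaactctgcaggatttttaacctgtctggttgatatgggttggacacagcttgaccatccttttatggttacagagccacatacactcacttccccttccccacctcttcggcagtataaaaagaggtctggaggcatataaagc
Pf4: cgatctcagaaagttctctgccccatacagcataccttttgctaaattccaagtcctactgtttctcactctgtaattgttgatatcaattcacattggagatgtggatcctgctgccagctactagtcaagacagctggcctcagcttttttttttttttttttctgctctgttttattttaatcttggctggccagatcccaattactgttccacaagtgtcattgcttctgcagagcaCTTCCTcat
The window of Gp5 held 2 GATA matches and 1 ETS match, that of Pf4 held 1 ETS match, and that of Ppbp held 0 of either. Of the 12 list members with a promoter in the RefSeq table, 3 (25%) held the GATA letters and 7 (58.3%) the ETS letters. Of all 32851 promoters in the table, 9.99% held the first and 29.5% the second. These matches describe letters and not sites in use.

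The platelet list varied between mice of 1 group. As the median over the 16 genes, relative to the mean of the young non-arthritic mice, the arthritic mouse of 4 months stood at 0.71 and that of 5 months at 0.32. The non-arthritic mice of 3, 3, 2 and 1 months stood at 0.05, -0.10, 0.39 and -0.28. One non-arthritic mouse thus lay between the 2 arthritic mice. Without that mouse of 2 months all 16 members were higher at an unadjusted p of 0.05, and 1 passed the adjusted threshold. Without the arthritic mouse of 4 months, 1 of the 16 was higher. Old non-arthritic mice stood at -0.39 and -0.36 and old arthritic mice at 0.02 and -0.09.

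**Figure D3:**
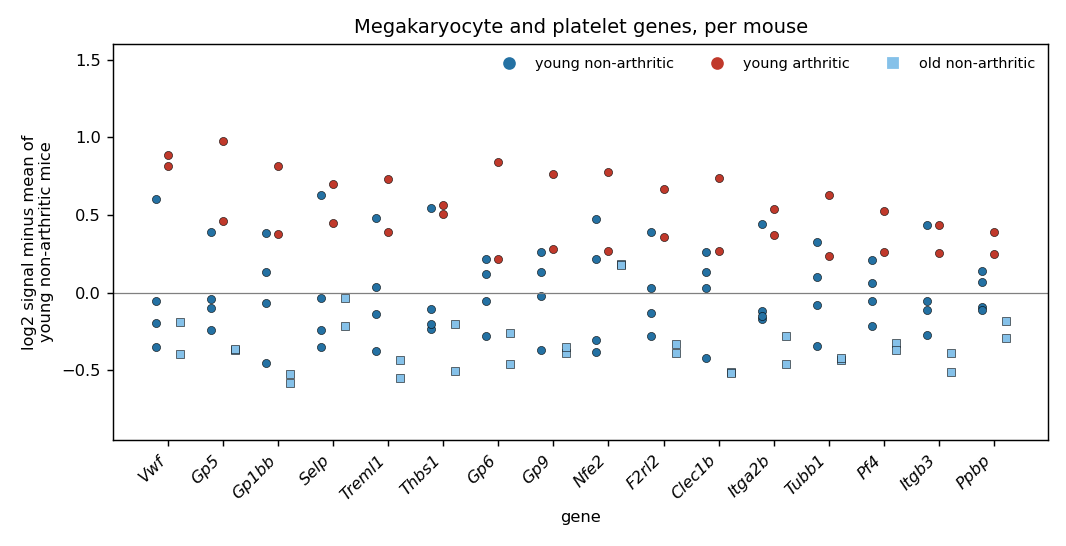
Log2 signal minus the mean of the young non-arthritic mice for the 16 kept genes of megakaryocytes and platelets, 1 point per mouse, in young non-arthritic, young arthritic and old non-arthritic mice. All arthritic points lie above 0, and in 7 of the 16 genes both arthritic mice lie above every non-arthritic mouse.

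Genes of other blood-forming cells had positive medians too, with a wide spread among the controls. The 20 erythroid genes had a median of 0.42, and 3 of them were higher at an unadjusted p of 0.05, against 17.4% of all genes. Car1, a carbonic anhydrase gene of red cells, had signals of 12.61 and 12.50 against 12.37, 11.83, 12.07 and 12.23, a difference of 0.43 (adjusted p = 0.178). Gata1, the master transcription factor gene of red cells and megakaryocytes, differed by 0.48 (adjusted p = 0.199) and Cpox, of haem synthesis, by 0.53 (adjusted p = 0.246), a second Cpox probe set by 0.08. The water channel gene Aqp1 differed by 0.37. The list stood at 0.31 and 0.43 in the arthritic mice and at 0.24, -0.49, 0.32 and -0.06 in the non-arthritic mice, so the groups overlapped. Without the non-arthritic mouse of 2 months 13 of the 20 were higher, against 16.2% of all genes. The count was lowest without an arthritic mouse.

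In the 26 genes of cell division all differences were positive, with a median of 0.37. At an unadjusted p of 0.05, 13 were higher, against 17.4% of all genes. Mcm6, of the replicative helicase, had signals of 12.46 and 12.29 against 12.01, 11.78, 12.17 and 11.93, a difference of 0.40 (adjusted p = 0.15). Cdk1, the mitotic kinase, had signals of 11.32 and 11.43 against 11.01, 10.57, 11.13 and 10.61, a difference of 0.55 (adjusted p = 0.156). The spindle genes Aurkb and Kif11 differed by 0.57 and 0.58 (both adjusted p = 0.188). The list stood at 0.33 in both arthritic mice and at 0.15, -0.31, 0.30 and -0.14 in the non-arthritic mice, so that the groups did not overlap but the mouse of 2 months came close. Quantile normalization again gave a median of 0.21 and left 3 of the 26 higher, against 6.34% of all genes. Without the non-arthritic mouse of 2 months 20 were higher, and without the arthritic mouse of 5 or of 4 months 4 and 3.

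Among 13 genes of haematopoietic progenitors the median was 0.12, near that of all genes, with 2 higher and 1 lower at an unadjusted p of 0.05. Lmo2, a transcription cofactor gene of blood-forming cells, differed by 0.28 (adjusted p = 0.208) and Myb, which encodes a progenitor transcription factor, by 0.24 (adjusted p = 0.27).

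Genes of oxidative phosphorylation, the respiratory chain of mitochondria, had small differences with little spread. Of 27 kept genes 26 had a positive difference, and the median was 0.17. At an unadjusted p of 0.05, 15 were higher, against 17.4% of all genes. Uqcrc1, a core subunit of complex III, had signals of 12.20 and 12.21 against 11.91, 11.94, 12.02 and 11.96, a difference of 0.25 (adjusted p = 0.151). Sdha, the flavoprotein of complex II, and Atp5b, the beta subunit of ATP synthase, each differed by 0.24 (adjusted p = 0.164 and 0.176), and Ndufs3 of complex I by 0.25 (adjusted p = 0.188). The list stood at 0.19 and 0.16 in the arthritic mice and at 0.04, -0.01, 0 and 0 in the non-arthritic mice. When a second quantile normalization removed the shift of all genes, the median was 0.01 and 0 of the 27 were higher and 1 lower.

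The 19 cytosolic ribosomal protein genes had a median of 0.09. The groups did not overlap in 14 of them with the arthritic mice higher, against 30.2% of all genes. At an unadjusted p of 0.05 only 1 was higher, against 17.4% of all genes. Rpl22 differed by 0.25 (adjusted p = 0.146) and its dimmer probe sets by 0.15 and 0.04. The list median was -0.01 after quantile normalization again.

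Monocyte genes included the called gene Ms4a6d. All 12 kept members had a positive difference, with a median of 0.29. At an unadjusted p of 0.05, 6 were higher, against 17.4% of all genes. Ccl9, a chemokine of myeloid cells, had signals of 10.24 and 10.23 against 9.90, 9.82, 10.02 and 9.82, a difference of 0.35 (adjusted p = 0.18), with 0.32 in its other probe set. Ifitm3, an interferon-induced membrane protein gene, differed by 0.26 (adjusted p = 0.182) and F13a1, the A subunit of clotting factor XIII made by monocytes and platelets, by 0.62 (adjusted p = 0.185). The list stood at 0.26 and 0.24 in the arthritic mice and between -0.06 and 0.05 in the non-arthritic mice. Normalized again, the list had a median of 0.16 and 2 of the 12 were higher.

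Of 24 genes of splenic macrophages, 21 had a positive difference, with a median of 0.12. At an unadjusted p of 0.05, against 17.4% of all genes, 6 of the list were higher. Besides Cd5l these included Lgals3, which encodes galectin-3, with signals of 13.57 and 13.28 against 12.70, 12.71, 13.09 and 12.89. Its difference was 0.58 ± 0.14 (adjusted p = 0.113). The lysosomal gene Cd68 differed by 0.28 (adjusted p = 0.176). The complement gene C1qb differed by 0.24 (adjusted p = 0.201), with 0.41 and 0.15 in other probe sets. After quantile normalization again the median of the list was -0.03, so its direction depended on the scaling.

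Neutrophil genes had the median 0.54, but the 2 arthritic mice stood far apart from each other. The list stood at 0.10 in the arthritic mouse of 5 months and at 0.88 in that of 4 months, and at 0.11, 0.05, 0.37 and -0.59 in the non-arthritic mice. Of 19 members 4 were higher at an unadjusted p of 0.05, against 17.4% of all genes. Lcn2, which encodes the iron-binding granule protein lipocalin-2, had signals of 12.80 and 13.66 against 12.74, 12.55, 12.86 and 11.81, a difference of 0.74 (adjusted p = 0.273). The collagenase gene Mmp8 had signals of 9.54 and 10.63 against 9.42, 9.06, 9.52 and 8.63, a difference of 0.93 (adjusted p = 0.237). Anxa1, which encodes annexin A1, differed by 0.54 (adjusted p = 0.269). The dim stefin gene Stfa3 had signals of 6.67 and 7.00 against 6.06, 5.76, 5.59 and 5.53 (adjusted p = 0.109). Stfa3 stood above the median signal in arthritic arrays only and was kept for those. Low values in the non-arthritic mice were thus favoured by the filter. Without the arthritic mouse of 5 months 13 of the 19 were higher, and without that of 4 months 1.

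In the 12 genes of mast cells, basophils and eosinophils the median was 0.20, and 1 was higher at an unadjusted p of 0.05. That was Fcer1a, the alpha chain of the IgE receptor, with signals of 7.70 and 7.96 against 7.19, 7.10, 7.35 and 7.32, a difference of 0.59 (adjusted p = 0.189).

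Antibody-forming cells were of interest because PGIA depends on antibodies to PG. The 18 plasma cell genes had a median of 0.30, and in 10 of them the arthritic mice lay above all non-arthritic mice, against 30.2% of all genes. At an unadjusted p of 0.05, 4 were higher, against 17.4% of all genes. Tnfrsf17, which encodes the survival receptor BCMA, had signals of 8.58 and 8.86 against 7.53, 7.71, 8.05 and 7.82, a difference of 0.94 (adjusted p = 0.168). The heavy chain gene Ighg3 had signals of 12.67 and 12.23 against 11.21, 11.41, 11.39 and 12.09, a difference of 0.92 (adjusted p = 0.174), and Igha differed by 0.61 (adjusted p = 0.224). Xbp1, the transcription factor gene of secretory cells, had the signal 13.40 in both arthritic mice, against 13.08, 13.19, 12.97 and 13.08, a difference of 0.32 (adjusted p = 0.272). Heavy chain probe sets can take up signal from related chains. Ighg3 differed by 0.51 and 0.16 in its other kept probe sets, and by 1.19 in another below the filter. Igha differed by 0.68 and 0.95 in its others, and Xbp1 by 0.57, 0.52 and 0.24. Among the brighter calls, a probe set of an immunoglobulin kappa chain gene, outside this list, differed by 1.15 (adjusted p = 0.0357). A brighter probe set of that kappa chain gene differed by 0.23 (adjusted p = 0.329).

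The plasma cell list stood at 0.28 and 0.31 in the young arthritic mice and between -0.07 and 0.03 in the young non-arthritic mice. Old arthritic mice stood at -0.03 and 0.66. Normalized again, the plasma cell genes had a median of 0.16, and 2 of the 18 were higher. The 23 genes of the unfolded protein response and of chaperones in the endoplasmic reticulum, which secretory cells use, had a median of 0.07, below that of all genes.

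The medians of B cell and T cell genes lay near 0, below that of all genes. The 18 B cell genes had a median of 0.02, and 0 were higher or lower at an unadjusted p of 0.05. Tnfrsf13c, the receptor for the survival factor BAFF, differed by 0.16. The 9 germinal centre genes had a median of 0.14. S1pr2, a receptor that keeps B cells in the germinal centre, differed by 0.45 (adjusted p = 0.233), and its other probe set by -0.05.

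The 21 T cell genes had a median of 0, with 1 higher. Cd6, a co-receptor of T cells, differed by 0.22 (adjusted p = 0.272), Bcl11b, a T lineage transcription factor gene, by -0.26, and Ctla4, the inhibitory receptor gene, by -0.34 (adjusted p = 0.357). The 12 genes of naive T cells had a median of 0.04. Il7r, the receptor for the survival cytokine IL-7, had signals of 11.41 and 11.36 against 11.19, 11.08, 11.14 and 11.07, a difference of 0.26 (adjusted p = 0.187), but its dimmer probe set differed by -0.04. The chromatin organizer gene Satb1 differed by -0.20. The 17 NK and cytotoxic genes had a median of -0.12, and 0 were higher or lower, with -0.25 for the inhibitory receptor gene Klrg1.

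The kept genes of T cell activation and differentiation differed little. The 17 genes of activated and memory T cells had a median of 0.10, with 3 higher at an unadjusted p of 0.05. Bhlhe40, a transcription factor gene of activated T cells, differed by 0.30 (adjusted p = 0.164), the calcium-binding protein gene S100a4 by 0.30 and Maf, a regulator of cytokine genes, by 0.24. Of the 26 T helper genes only 8 were kept, and no difference is given for the others. The 8 had a median of 0.07, with Stat4, the signal transducer of IL-12, at 0.34 (adjusted p = 0.2). Of the 16 regulatory T cell genes 12 were kept, with a median of 0.08. Itgae, which encodes the integrin CD103, differed by 0.31 (adjusted p = 0.255) and Ikzf2, which encodes Helios, by -0.24 (adjusted p = 0.362).

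The products of another list were assayed as proteins in serum, culture or by flow cytometry. Of the 24 genes on this list 13 were kept. They are Tnf, Spn, Cd44 and those of lymphocyte and macrophage surface proteins and IgM given here. Their median was 0.09, near that of all genes, and 2 were higher at an unadjusted p of 0.05. Tnf, the inflammatory cytokine gene, had signals of 8.09 and 8.13 against 7.70, 7.75, 7.51 and 7.67, a difference of 0.45 ± 0.10 (adjusted p = 0.0934). Spn, which encodes CD43, differed by 0.31 (adjusted p = 0.261), and the adhesion receptor gene Cd44 by 0.18 (adjusted p = 0.379). Cd3e differed by 0.10, Cd4 by -0.08, Cd8a by -0.16, Cd28 by -0.03 and Cd5 by 0.09. The IgE receptor gene Fcer2a of B cells differed by -0.13 and Ighm by 0.09, the macrophage gene Adgre1 by 0.05, the dendritic cell integrin gene Itgax by 0.10 and Ptprc, which encodes CD45, by 0.06. Adjusted p for these last 10 genes lay above that of Cd44. The difference of each changed sign, or for Ighm became 0, under at least 1 alternative given in the closing section. These alternatives were a scaling, a choice of controls or the omission of a mouse. The other kept probe sets of Ighm, all dimmer, differed by 0.11 to 0.55.

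Dendritic cell genes included the called gene Ly75, but the other members stayed near the shift of all genes. The 22 kept genes had a median of 0.07, and 1 was higher at an unadjusted p of 0.05. Cd74, the invariant chain of MHC class II, differed by 0.14 (adjusted p = 0.3), the actin-bundling protein gene Fscn1 by 0.31 (adjusted p = 0.313) and the chemokine gene Ccl22 by 0.21 (adjusted p = 0.351).

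Inflammatory cytokines and chemokines were described by 23 kept genes, with a median of 0.08. At an unadjusted p of 0.05, 6 were higher, against 17.4% of all genes. Beside Tnf, Cxcl5, a neutrophil-attracting chemokine, had signals of 9.89 and 9.26 against 8.97, 8.87, 8.59 and 8.65, a difference of 0.81 ± 0.23 (adjusted p = 0.147). The monocyte chemokine gene Ccl2 was dim, with signals of 7.15 and 7.23 against 6.67, 6.60, 6.55 and 6.77 (adjusted p = 0.162). Ccl2 stood above the median signal in arthritic arrays only and was kept for those. Low values in the non-arthritic mice were thus favoured by the filter. Il1rn, the antagonist of interleukin 1, differed by 0.31 (adjusted p = 0.203), with 0.30 and -0.08 in other probe sets. In Tnf, Cxcl5, Ccl2 and Il1rn, which were named for their small p, the arthritic mice lay above all non-arthritic mice. Over the list this held for 8 of the 23 genes, against 30.2% of all genes.

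Of 22 genes of Jak-Stat signalling and its Socs inhibitors, 20 had a positive difference, with a median of 0.15, against 0.11 for all genes. At an unadjusted p of 0.05, 4 were higher, a share near the 17.4% of all genes. Ptpn11, which encodes the phosphatase SHP-2, had signals of 11.56 and 11.68 against 11.28, 11.21, 11.32 and 11.03, a difference of 0.41 ± 0.10 (adjusted p = 0.116). Stat3, the signal transducer of interleukin 6, differed by 0.30 (adjusted p = 0.181), with 0.22 in its next probe set, and the kinase gene Jak2 by 0.24 (adjusted p = 0.189). The median was 0.03 and 1 was higher after quantile normalization again.

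Among 20 genes of toll-like receptors and their adaptors the median was 0.15, with 2 higher and 1 lower. The flagellin receptor gene Tlr5 was dim, with signals of 6.23 and 6.27 against 6.77, 6.91, 6.81 and 6.89 (adjusted p = 0.0893). Tlr5 stood above the median signal in non-arthritic arrays only and was kept for those. Low values in the arthritic mice were thus favoured by the filter. The adaptor gene Traf6 differed by 0.22 and the RNA sensor gene Tlr8 by 0.26. The 24 interferon response genes had a median of 0.07, with 1 higher and 1 lower, the GTPase gene Igtp at 0.33 (adjusted p = 0.23) and the antiviral gene Oas2 at -0.25 (adjusted p = 0.242). The 17 genes of complement and Fc receptors had a median of 0.18, with Fcer1g, the common gamma chain of Fc receptors, at 0.19 (adjusted p = 0.242).

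Immediate early genes, which respond to stimuli within the hour, had a median of 0.19 in 23 genes, 22 of them positive. At an unadjusted p of 0.05, 5 were higher, against 17.4% of all genes. Atf3, a stress-induced transcription factor gene, had signals of 9.14 and 8.62 against 8.07, 8.15, 8.25 and 8.30, a difference of 0.69 ± 0.16 (adjusted p = 0.107). The nuclear receptor gene Nr4a2 differed by 0.35 (adjusted p = 0.209) and the stress response gene Gadd45b by 0.31 (adjusted p = 0.211), with 0.43 and -0.17 in other probe sets. Normalization again gave a median of 0.05, with 2 higher.

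Heat shock genes ran the other way. Of 15 kept genes 10 had a negative difference, the median was -0.13, and 3 were lower at an unadjusted p of 0.05, against 2.07% of all genes. Hspa1b, an inducible chaperone gene, had signals of 8.93 and 8.52 against 9.95, 10.34, 9.70 and 8.76, a difference of -0.96 ± 0.37 (adjusted p = 0.233), and its other probe sets differed by -0.92 and -1.09. Hsph1 had signals of 10.53 and 10.39 against 11.33, 11.53, 10.96 and 10.51, a difference of -0.62 (adjusted p = 0.227). The co-chaperone gene Dnaja1 differed by -0.36 (adjusted p = 0.233) and the small heat shock protein gene Hspb1 by -0.23. The 2 non-arthritic mice of 3 months stood high and that of 1 month lay at the level of the arthritic mice. Against the non-arthritic mice of 1 and 2 months alone the median was 0.04 and 0 were lower. Against those of 3 months it was -0.21 and 6 were lower, and after quantile normalization again it was -0.30 and 7 were lower.

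In metabolism, the 20 genes of glycolysis and hypoxia had a median of 0.19. At an unadjusted p of 0.05, 6 were higher and 1 lower, against 17.4% and 2.07% of all genes. Hk2, which encodes hexokinase 2, had signals of 9.11 and 9.27 against 8.80, 8.89, 8.82 and 8.64, a difference of 0.40 ± 0.10 (adjusted p = 0.125). The hypoxia-responsive gene Ndrg1 differed by 0.29 (adjusted p = 0.13), with 0.02 to 0.39 in other probe sets. The mitophagy gene Bnip3 differed by 0.30 (adjusted p = 0.182) and the glycolytic mutase gene Pgam1 by 0.37 (adjusted p = 0.188). After quantile normalization again 1 was higher and 2 lower. The 17 genes of cholesterol synthesis had a median of 0.19, with Dhcr7 at 0.32 and Hsd17b7 at 0.31 (adjusted p = 0.212 and 0.209). The 15 genes of iron handling, which red pulp macrophages recycle, were all positive with a median of 0.17, and the iron transporter gene Slc11a1 differed by 0.24 (adjusted p = 0.237).

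The 16 glucocorticoid response genes had a median of 0.09, with 2 higher and 1 lower. The zinc finger gene Zbtb16 had signals of 7.06 and 6.93 against 7.37, 7.35, 7.48 and 7.42, a difference of -0.41 (adjusted p = 0.118). The kinase gene Sgk1 differed by 0.23 (adjusted p = 0.212) and the metallothionein gene Mt2 by 0.35 (adjusted p = 0.252). The 16 circadian clock genes had a median of 0.08.

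Stromal and vascular genes did not shift as lists. The 27 genes of matrix and fibroblasts had a median of -0.01, the 20 of endothelium 0.06 and the 7 of lymphoid stroma chemokines 0.03. In endothelium, Flt1, a receptor of vascular endothelial growth factor, had signals of 7.78 and 7.56 against 8.10, 8.45, 8.03 and 8.13, a difference of -0.51 ± 0.14 (adjusted p = 0.152), but its other probe set differed by 0.03. Mmrn1, which encodes multimerin 1 of platelets and endothelium, differed by 0.63 (adjusted p = 0.213). Among 13 matrix metalloproteinases and inhibitors the median was 0.11. The stromelysin gene Mmp3 differed by 0.53 (adjusted p = 0.216). The aggrecanase gene Adamts5, whose product cleaves the core protein of PG, differed by -0.36 (adjusted p = 0.227), and a second probe set by -0.30. A dim probe set of the gene was past the threshold, with signals of 6.54 and 6.24 against 7.15, 7.34, 7.08 and 7.06 (adjusted p = 0.0401). That probe set stood above the median signal in young non-arthritic arrays only and was kept for those. Low values in the arthritic mice were thus favoured by the filter.

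A piece of spleen can carry fat, capsule or pancreas. The 9 kept adipose genes had a median of 0.23. Adipoq, which encodes the fat cell hormone adiponectin, had signals of 7.51 and 7.84 against 5.61, 6.27, 5.42 and 7.24 (adjusted p = 0.246), and Retn, which encodes resistin, of 7.88 and 8.26 against 7.05, 7.20, 7.16 and 7.65, a difference of 0.80 (adjusted p = 0.116). As a median over its genes the list stood at 0.12 and 0.41 in the arthritic mice and between -0.10 and 0.06 in the non-arthritic mice. The 12 mesothelium genes had a median of 0.01, with Slpi, which encodes a secreted protease inhibitor, at 0.43 (adjusted p = 0.188). The 7 kept pancreatic genes had a median of -0.09, with the trypsinogen gene Prss2 at -0.33, and 10 kept genes of other organs -0.02, with -0.28 for Ttr of liver and -0.35 for Prm1 of testis. The part of these tissues in the results was not tested.

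**Figure D4:**
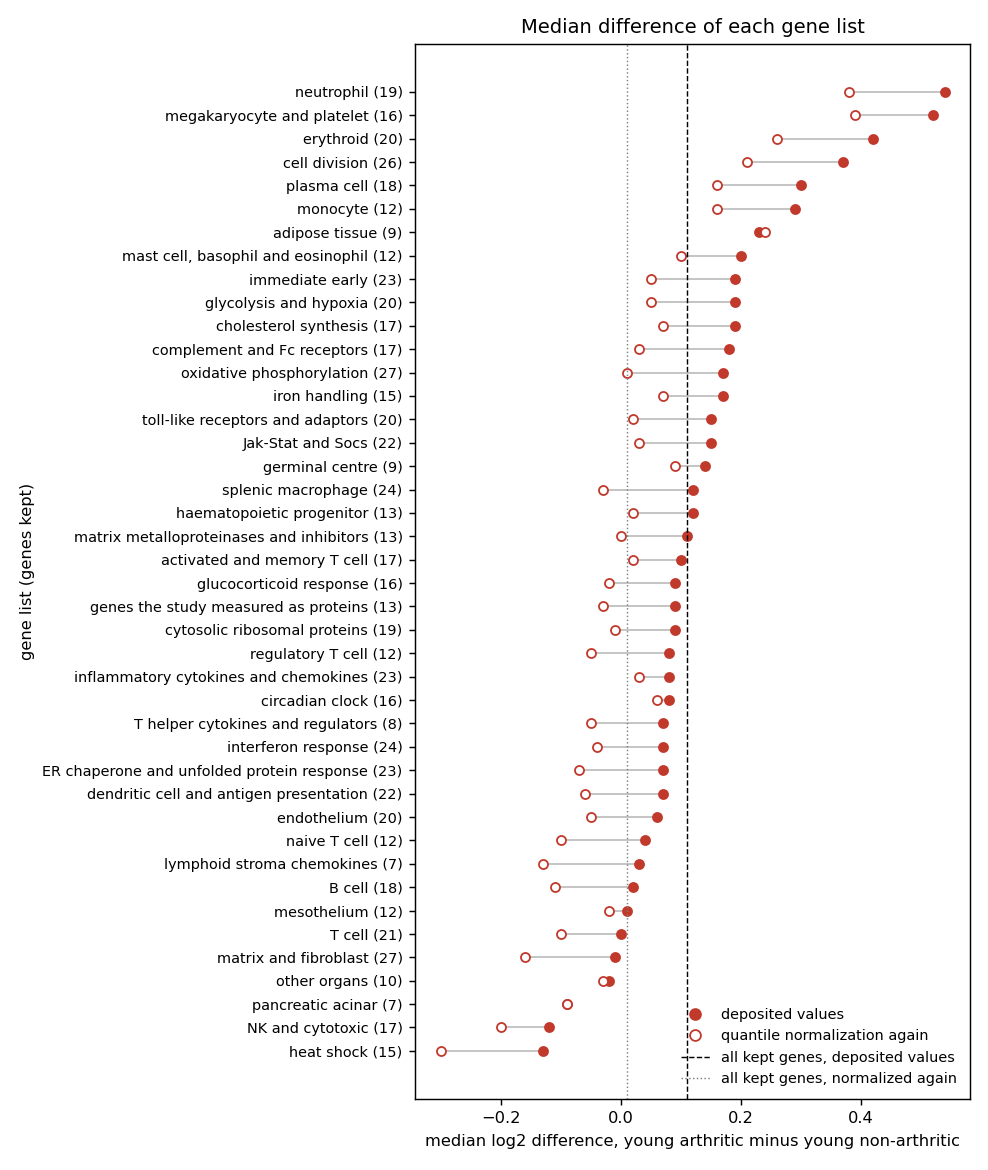
Median log2 difference, young arthritic minus young non-arthritic mice, of the genes of each of 42 lists (number of kept genes in brackets), from the deposited values and after quantile normalization again, with the medians of all 11870 genes as vertical lines. Neutrophil and platelet genes stand at 0.54 and 0.52 and heat shock genes at -0.13 in the deposited values, and nearly all lists move left together when the arrays are normalized again.

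Because age ran with arthritis, the young arthritic mice were also set beside the old non-arthritic mice, whose ages of 7 and 5 months are not below theirs. The 2 comparisons share the young arthritic arrays, so their values are given side by side and not as support of each other. Here 10 of 23805 probe sets passed, or 0.042%, 8 higher and 2 lower, and 19.7% of genes were higher and 2.27% lower at an unadjusted p of 0.05, with a median of 0.14. The difference of Ly75 was 0.94 against young and 1.04 against old non-arthritic mice. For Ms4a6d the values were 0.71 and 0.79, for Bbc3 0.50 and 0.56, for Pdgfc 0.62 and 0.74 and for Ptprv -0.44 and -0.45. None of these 5 passed against the old non-arthritic mice, with adjusted p from 0.058 to 0.0725. Cog7 was dim in both control groups, at 6.71 to 6.77 in the young and at 6.82 and 6.79 in the old non-arthritic mice, against 7.85 and 7.79 in the young arthritic mice. It stood above the median signal in arthritic arrays only and was kept for those. Low values in both control groups were thus favoured by the filter. Without either young arthritic mouse 0 passed against the old non-arthritic mice, and 0 when only these 2 groups were fitted.

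Some lists stood differently against the 2 control groups. Platelet genes had medians of 0.52 and 0.88, with 14 and 15 of the 16 higher at an unadjusted p of 0.05. Neutrophil genes had medians of 0.54 and 1.51, with 4 and 17 of the 19 higher, and Lcn2 differed by 0.74 and 2.00. Mast cell, basophil and eosinophil genes had medians of 0.20 and 0.79, with 1 and 7 of the 12 higher. Cell division genes had medians of 0.37 and 0.16, with 13 and 1 of the 26 higher, and erythroid genes 0.42 and 0.01. Oxidative phosphorylation genes had medians of 0.17 and 0.19, with 15 and 13 of the 27 higher. Heat shock medians were -0.13 and 0.14, and the difference of Hspa1b was -0.96 and 0.21. Whether the 2 differences of a list differ was not tested.

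**Figure D5:**
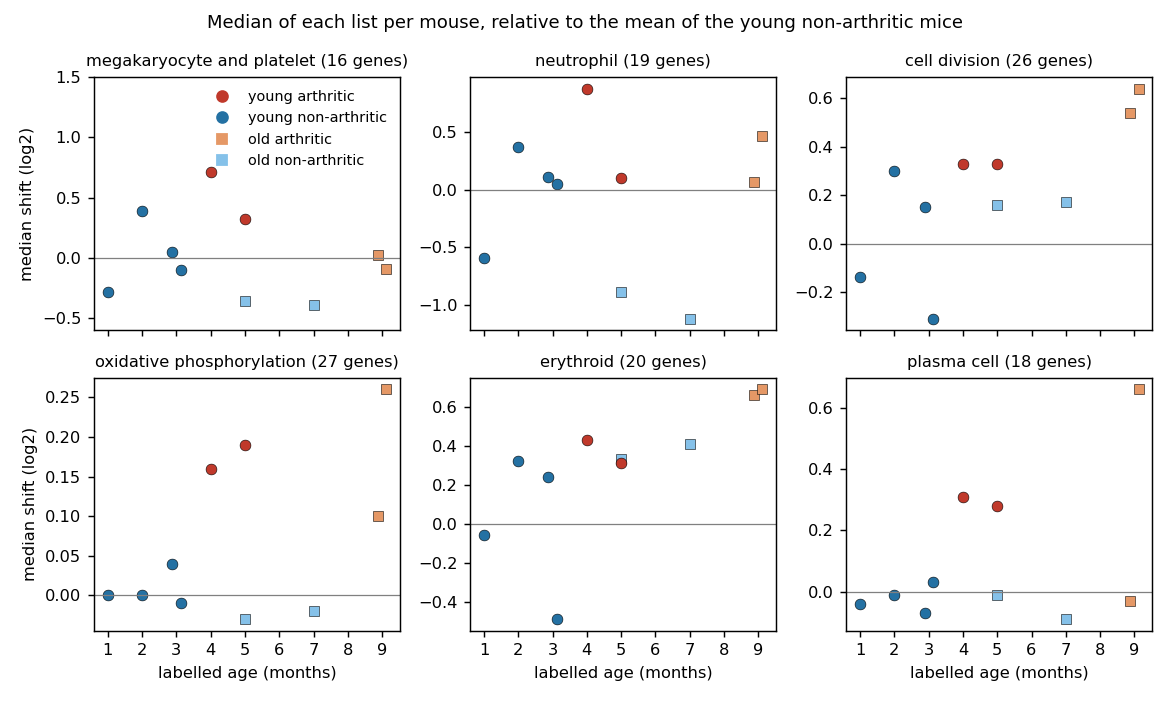
Median over the genes of 6 lists per mouse (points), relative to the mean of the young non-arthritic mice, against the labelled age in months, for all 4 groups. Platelet genes are lowest in the old non-arthritic mice at -0.36 and -0.39, neutrophil genes in the same mice at -0.89 and -1.12, while cell division and erythroid genes are highest in the old arthritic mice.

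Whether young and old mice differed in the effect of arthritis was tested as an interaction in the same limma fit. Of the 23805 probe sets 0 passed, or 0%, the smallest adjusted p being 1, and 737 were at an unadjusted p of 0.05. The median over all genes of the young minus the old difference was 0.04. Examples were chosen after their values were seen. Cd5l had signals of 11.58 and 11.63 in old arthritic and of 11.66 and 11.44 in old non-arthritic mice, and its young difference exceeded the old one by 0.54 (unadjusted p = 0.00616, limma). For Il7r the excess was 0.42, for C1qb 0.33 and for Adgre1 0.37, and the adjusted p of each was 1. Among the lists, neutrophil genes had a median of 0.54 in young and of 1.27 in old mice, platelet genes of 0.52 and 0.30, plasma cell genes of 0.30 and 0.37 and naive T cell genes of 0.04 and -0.27. Lists were not tested, and the absence of a call does not show that the effects were alike. Without replicate 1 of the old arthritic mice 55 probe sets passed, and without replicate 1 of the old non-arthritic mice 2.

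The calls of single probe sets rested on few mice. Without either young arthritic mouse 0 of the 23805 probe sets passed, and without 1 of the non-arthritic mice of 3, 3, 2 and 1 months 10, 5, 19 and 11 passed. The left-out mouse's partner was then assumed to vary like the other groups. With age in months added to the limma fit 0 probe sets passed, and at an unadjusted p of 0.05 597 of the genes were higher and 154 lower. The differences of the 9 brighter called genes were then 0.54 to 0.93 for the 8 that rose, Ly75 being at 0.93 (adjusted p = 0.625), and -0.48 for Ptprv, with adjusted p from 0.442 to 0.719. Among genes not past the threshold some changed sign, as Ikzf2 from -0.24 to 0.03 and Cd5 from 0.09 to -0.01. An exact permutation test of 2 against 4 mice cannot go below a two-sided p of 0.0667. Counts of list members moved too. With 1 of the 6 young mice left out, between 1 and 16 of the 16 platelet genes were higher at an unadjusted p of 0.05, between 3 and 20 of the 26 cell division genes and between 1 and 14 of the 27 oxidative phosphorylation genes. Between 1 and 13 of the 20 erythroid genes and 1 and 13 of the 19 neutrophil genes were higher, 3 to 6 of the 12 monocyte genes, 3 to 7 of the 24 macrophage genes and 1 to 4 of the 18 plasma cell genes. In each of these 8 lists the lowest count came without 1 of the arthritic mice, when 10.6% (without the mouse of 5 months) or 7.39% (without that of 4 months) of all genes were higher. For neutrophil genes it also came without the non-arthritic mouse of 1 month or 1 of those of 3 months.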

How the data were processed

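Affymetrix mouse expression arrays, 1 for each of 10 mice, measured spleen RNA. The log2 signals deposited by the authors were made with RMA, which corrects for background, normalizes the arrays and combines the probes of a probe set. No version of RMA was given in the sources used here, and the study's text does not describe the arrays. The table held 45101 entries, of which 64 controls were left out. Of the 45037 others, 34945 carried 1 gene symbol in the platform annotation, 932 several and 9160 none, and probe sets without 1 symbol were tested but not named. No column was left out (0). The number of arrays limits the precision.

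A probe set was kept where at least 2 arrays showed it above their own median. A mean for each of the 4 groups was fitted over 10 arrays by lmFit and eBayes of limma 3.58.1 under R 4.3.3 (6 residual and 3.08 prior degrees of freedom), so that the groups shared 1 estimate of the spread. P-values were adjusted by Benjamini-Hochberg over all kept probe sets, with a threshold of 0.05, and measure the spread between these mice. The fit was tested on simulated data. Named genes were up to 12 in each direction past the threshold with both means above the arrays' middle, filled up by smallest p where the groups did not overlap, up to 5 dim genes in each direction, up to 4 members of each of 42 lists by smallest p, and the genes measured as proteins. Exceptions are given where they stand. Members and lists were chosen with earlier results of these data known. Replicate numbers did not pair the mice: deviations of the 12 pairs of equal number correlated between -0.53 and 0.36. Alternatives covered the filter, normalization, the estimate of the spread, the replicate block, age, the controls, fits of fewer groups and the omission of single arrays. Promoters came from RefSeq and figures were drawn with matplotlib 3.10.9.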

Additional observations from a re-analysis of the deposited data

Results flagged for a closer look

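In 6 of 136 genes checked, 1 of the 4 young non-arthritic mice lay apart from the other 3, its gap to the nearest mouse as a share of the range of the group being above Dixon's 95% critical value. Such a gap arises by chance in about 5% of groups of 4. The non-arthritic mouse replicate 1, of 3 months, lay apart in Bbc3, at 8.43 against 8.40 (0.831 of the range), and in Itgae, at 7.73 against 7.44 (0.965). The mouse of 2 months lay apart in Ms4a6d, at 9.48 against 9.18 (0.833), and in Ifitm3, at 12.98 against 13.17 (0.952). The mouse of 1 month lay apart in Bnip3, at 9.12 against 8.99 (0.866), and in Pgam1, at 10.96 against 11.27 (0.855).

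Cd6 differed in opposite directions in young and old mice. Both young arthritic mice lay above all young non-arthritic mice and both old arthritic mice below the old non-arthritic mice, at 8.79 and 8.71 against 8.87 and 8.93. The young difference exceeded the old one by 0.37 (limma interaction, unadjusted p = 0.0323, adjusted p = 1).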

How the results depend on the processing

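The count of 74 called probe sets in young arthritic against young non-arthritic mice was 3186 with no filter (1838 higher and 1348 lower), 2 with a stricter filter, 34 after quantile normalization again, 6 with an intensity trend, 533 with array weights, 17 when only the groups compared were fitted, 0 with age in months added, 5 against the controls of 3 months and 0 against those of 1 and 2 months. With the replicate number as a block it was 0, although the numbers did not pair the mice. With 1 array left out it ran from 0, without either young arthritic mouse, to 84, without either old arthritic mouse, which left the other as a group of 1 that adds nothing to the spread. Without either old non-arthritic mouse it was 10. Against old non-arthritic mice the count of 10 became 2447 with no filter, 2 with a stricter filter, 1 with an intensity trend, 25 with no moderation, 2890 with array weights, 49 without the 2 old arthritic arrays and 84 with gene means. It became 0 with the replicate block, with age added and with only the 2 groups compared, and ran from 0 to 49 with 1 array left out, with 2 and 3 without an old non-arthritic mouse and 1, 3, 18 and 8 without a young non-arthritic one. The interaction count was 0 throughout, except with 1 array left out, where it ran from 0 to 55. The causes were not tested.

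Among single genes in other settings, 1661 results stayed on their side of the threshold with the same sign, 124 lost the call, 58 gained one and 15 changed sign. With an array left out these numbers were 1233, 115, 5 and 7. Of the list medians in other settings, 539 moved by less than the spread between young non-arthritic mice and 48 by more. Quantile normalization again gave -0.08 for Adgre1, -0.03 for Cd3e, -0.01 for Cd5, 0 for Ighm, -0.02 for Itgax and -0.10 for Ptprc, and by gene means Ptprc was -0.53. Against the controls of 1 and 2 months Cd28 was 0.14, Cd4 0.03, Cd8a 0.06 and Klrg1 0.02. Cd5 was -0.04 with the replicate block and against the controls of 3 months, and -0.01 with age added, where Ikzf2 was 0.03. With 1 array left out Cd28 ran from -0.15 to 0.07, Cd4 from -0.18 to 0.01, Cd5 from -0.01 to 0.16, Fcer2a from -0.27 to 0.02 and Itgax from -0.23 to 0.43.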
